A study of Mus musculus with 14 samples.

Results

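The genes of the YAP/TAZ and TEAD node were followed through the reprogramming of mouse epidermal stem cells (EpdSCs) by SOX9. The 9 genes were taken by symbol from a table of 54332 genes: the coactivators Yap1 and Wwtr1 (the gene of TAZ), the DNA-binding partners Tead1, Tead2, Tead3 and Tead4, and 3 genes known as YAP/TAZ targets, Lats2, Amotl2 and Ankrd1. All 9 were found once each, and 8 had a mean of at least 1 TPM (a level scaled for transcript length and library total), the minimum for testing, while Ankrd1 did not. Over the time course Yap1, Wwtr1, Lats2, Amotl2 and Tead3 ended lower than they began, and Tead2 and Tead4 ended higher.

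Every one of the 10 libraries came from back skin of CD1 mice labelled male that carried K14rtTA and TRE-myc-Sox9, so the animals before induction held both transgenes as well. The doxycycline-dependent activator is driven by the Krt14 promoter, which is active in basal epidermal and follicle keratinocytes, and doxycycline then switches on MYC-tagged SOX9. D0 was taken at P21 before doxycycline, and W1 and W2 after 1 and 2 weeks, at P28 and P35. W6 followed 6 weeks of induction, at P63, and W12 followed 12 weeks in skin that had been grafted from newborn epidermis onto immunocompromised Nude female hosts before doxycycline. Cells were sorted as CD31/45/117/140a-negative, CD49f-high, CD34-negative and Ly6A-high. Each timepoint had 2 libraries, labelled biological replicates, with no statement of how many animals each held, so p-values measure the spread between these libraries, which may be technical in part. Age rose with the time of induction and W12 alone was grafted, so age, grafting and time cannot be told apart.

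YAP and TAZ are transcriptional coactivators that do not bind DNA themselves and reach their targets through the TEAD family. In the Hippo pathway, MST kinases with SAV1 activate LATS kinases with MOB1, and LATS phosphorylates YAP and TAZ, which keeps them in the cytoplasm. In skin, YAP and TAZ are known for supporting the proliferation of basal keratinocytes and for their requirement in basal cell carcinoma models. Their activity is set largely by phosphorylation and location, so RNA levels report the supply of the components and of their targets, not activity itself.

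The libraries were checked before the members. The MYC-SOX9 transgene was at 89.6 and 45.6 TPM in the D0 libraries and between 606 and 3414 TPM in the induced ones. Keratinocyte markers were present throughout, with 6 basal markers summing to 31655 to 47964 TPM, most of it Krt14 and Krt5. Within that list 5 of 6 were called lower at W6 and 4 of 6 at W12, beside 14.1 and 25.1% of all tested genes. Itgb4 (-1.07 and -1.73), Trp63 (-1.36 and -1.83) and Col17a1 (-1.70 and -1.77) were lower at both on the log2(TPM + 1) scale. The means of Krt5 and Itga6 were also below D0 at both, with Itga6 at 243, 107 and 166 TPM at D0, W6 and W12. Krt14 went the other way at W12, with a mean of 36519 TPM against 30499 TPM at D0 and 25114 TPM at W6. A list of 6 suprabasal markers summed to 5784 and 1909 TPM at D0, 3754 to 7344 TPM at W1 and W2 and 11899 to 13555 TPM at W6 and W12, most of it Krtdap at the later timepoints (9986 to 11060 TPM). Of these 6, Ivl, Sbsn and Krtdap were called higher at W6 and W12, Lor was called lower at W12 (-2.60), and Krt1 and Krt10 were called at neither, beside 18.3 and 17.9% of all tested genes higher and 25.1% lower at W12. Replicates of a timepoint correlated across genes at 0.958 to 0.988. D0 replicate 2 went against its label of male, since it held 4.61 TPM of the X-inactivation RNA Xist where D0 replicate 1 had 0.00103 TPM. Ddx3y, a gene of the Y chromosome, was at 0.0278 TPM in replicate 2 and 32.1 TPM in replicate 1. Both W12 libraries held Xist, at 5.51 and 3.50 TPM, beside Ddx3y at 10.97 and 12.9 TPM. In the same W12 libraries 4 endothelial markers summed to 51.8 and 112 TPM, against 0.0598 to 1.42 TPM from D0 to W6, and Pecam1, which encodes the CD31 that the sort excluded, was at 26.1 and 59.8 TPM. The immune list, nearly all of it Cd74, summed to 15.0 to 27.0 TPM from D0 to W2, 3.78 and 2.79 TPM at W6 and 102 and 125 TPM at W12, while Ptprc, which encodes CD45, was at most 0.327 TPM. In the fibroblast list only Dcn stood out, at 51.2 TPM in W6 replicate 2, 13.2 and 27.2 TPM at W12 and at most 2.06 TPM elsewhere, with Col1a1 at 0.481 TPM or less in every library. A list of 16 immediate-early genes, known to respond to tissue dissociation among other stimuli, summed to 33267 and 55149 TPM at D0 and to 5645 to 13039 TPM later. The part of these shifts, keratinocyte markers included, in the results was not tested, and in bulk RNA fewer cells of a type and less RNA per cell cannot be told apart. Leaving out D0 replicate 2 left the members called, as defined with the first comparison, at 1 for W1 and 0 for W2, and brought W6 from 5 to 4 and W12 from 7 to 5.

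**Figure D1:**
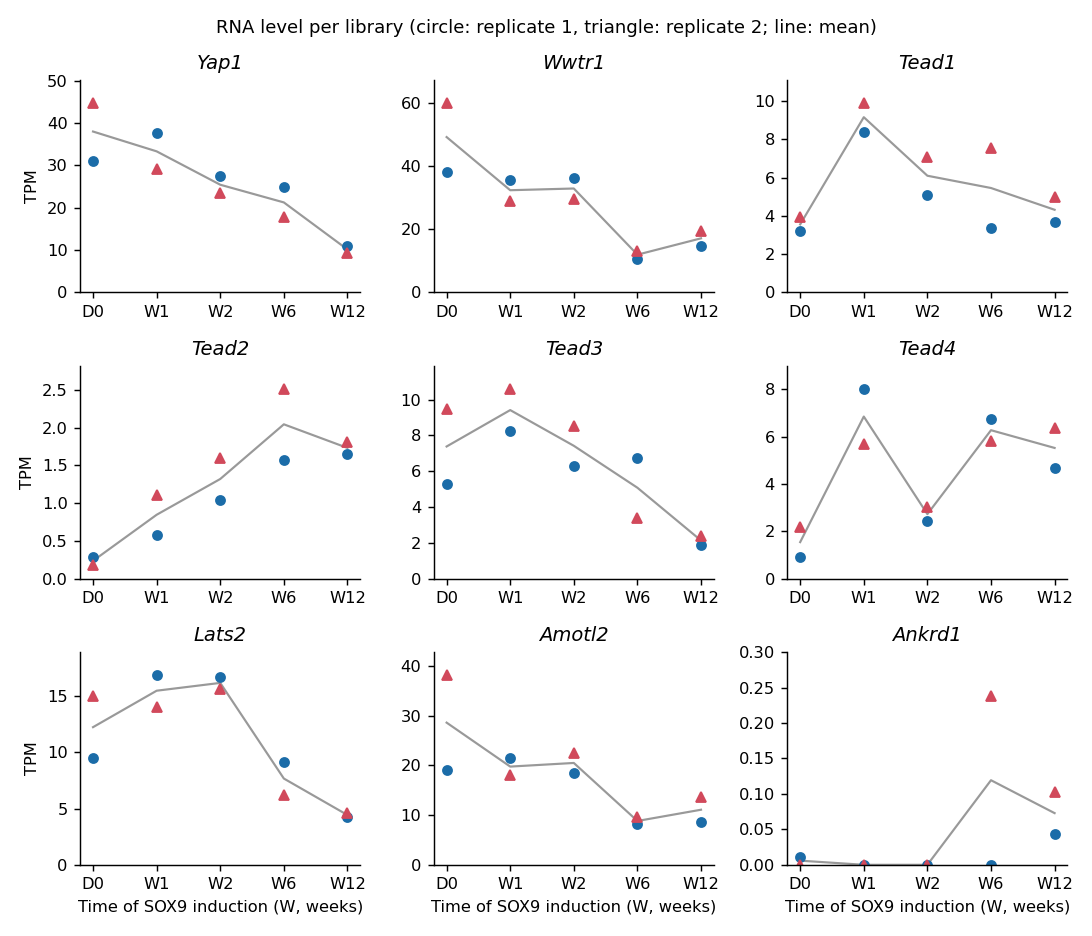
RNA level in TPM (linear axis, from 0) of each of the 9 genes in the 10 libraries, by time of SOX9 induction, with circles and triangles for replicates 1 and 2 and a line through the mean of each timepoint. The means of Yap1 and Wwtr1 were highest at D0 and lowest at W12 for Yap1 and at W6 for Wwtr1. Tead4 was lowest at D0, and Ankrd1 stayed at or under 0.239 TPM.

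Yap1 RNA was lower than at D0 at W6 and W12. Yap1 (chr9:7931999-8004596, minus strand, GRCm38, protein coding) was at 31.1 and 44.8 TPM at D0, 37.6 and 29.0 at W1, 27.4 and 23.5 at W2, 24.8 and 17.7 at W6 and 10.9 and 9.36 at W12. The mean went from 38.0 ± 9.69 TPM at D0 to 10.1 ± 1.10 TPM at W12 (SD, n = 2 each). D0 overlapped with W1, and W2 with W6, while both W12 libraries lay below all others. On the log2(TPM + 1) scale, which understates the change of low genes, the differences of Yap1 from D0 were -0.17, -0.54, -0.81 and -1.79 at W1, W2, W6 and W12 (SE 0.24 each), and limma with Benjamini-Hochberg adjustment gave adjusted p = 0.704, 0.160, 0.0321 and 0.000665. The W1 and W2 values were -0.43 and -0.80 without D0 replicate 1 and 0.083 and -0.29 without D0 replicate 2. The fall at W12 held in all 17 other fits, whereas the W6 call was lost in 9 of 19 fits. At W6 the change was -0.55 (adjusted p = 0.187, limma) without D0 replicate 2 and -0.57 (adjusted p = 0.149) without W6 replicate 2, and without W2 replicate 1, W2 replicate 2, W12 replicate 1 or W12 replicate 2 it kept its size with limma adjusted p values between 0.0517 and 0.0521. From W6 to W12 Yap1 fell by 0.98 (SE 0.24, limma adjusted p = 0.0227), a call that was lost without W6 replicate 1 (adjusted p = 0.103), W12 replicate 1 (0.0922) or W12 replicate 2 (0.116).

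Wwtr1 (chr3:57455649-57575910, minus strand), which encodes TAZ, fell between W2 and W6. Its level was 38.2 and 60.1 TPM at D0, 35.6 and 29.0 at W1, 36.1 and 29.6 at W2, 10.6 and 13.2 at W6 and 14.7 and 19.5 at W12. No library of W6 or W12 reached any earlier one, and W1 and W2 overlapped. The mean was 49.1 ± 15.46 TPM at D0 and 11.9 ± 1.84 TPM at W6 (SD, n = 2 each). The change from D0 was -0.56 at W1 and -0.54 at W2 (limma adjusted p = 0.201 and 0.182), -1.93 at W6 and -1.45 at W12 (SE 0.25 each, limma adjusted p = 0.000975 and 0.00237), and both later calls held in every other fit. Between W2 and W6 the fall was -1.39 (limma adjusted p = 0.0115), and it was no longer called without W2 replicate 1 (adjusted p = 0.0988) or W2 replicate 2 (0.0524). Without D0 replicate 1 the W2 value of -0.86 passed the threshold (adjusted p = 0.0483), and without D0 replicate 2 it was -0.22. The W1 value was -0.88 and -0.24 without the same libraries. From W6 to W12 the difference was 0.48 (SE 0.25, limma adjusted p = 0.215), and leaving out 1 library at a time gave 0.28 to 0.67.

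The ratio of Yap1 to Wwtr1, both in TPM, was 0.815 and 0.747 at D0, 1.06 and 1.00 at W1 and 0.758 and 0.792 at W2. At W6 it was 2.33 and 1.34, above all other libraries, and at W12 it was 0.744 and 0.479. The sum of both was 69.4 and 104.9 TPM at D0 and 25.6 and 28.9 TPM at W12. These ratios were not tested.

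Promoters of the coactivators are shown because TEAD factors recognise the letters GGAATG, read as CATTCC on the other strand. The windows run from 250 bases before to 50 bases after the start of a RefSeq transcript (GRCm38.p6), 5′ to 3′ along the gene, with matches in capitals. The Yap1 window is chr9:8004547-8004846 (minus strand) and holds the letters 141 bases before the start, at position -141. The Wwtr1 window is chr3:57575861-57576160 (minus strand), with a match at position -136, and a second Wwtr1 window, from another start, holds the same match.
Yap1: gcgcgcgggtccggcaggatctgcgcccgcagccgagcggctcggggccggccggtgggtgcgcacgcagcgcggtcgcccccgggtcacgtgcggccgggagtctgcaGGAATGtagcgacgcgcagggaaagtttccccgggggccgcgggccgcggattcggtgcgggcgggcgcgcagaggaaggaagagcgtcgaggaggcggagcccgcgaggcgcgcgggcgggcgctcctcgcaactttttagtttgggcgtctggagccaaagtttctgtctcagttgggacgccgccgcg
Wwtr1: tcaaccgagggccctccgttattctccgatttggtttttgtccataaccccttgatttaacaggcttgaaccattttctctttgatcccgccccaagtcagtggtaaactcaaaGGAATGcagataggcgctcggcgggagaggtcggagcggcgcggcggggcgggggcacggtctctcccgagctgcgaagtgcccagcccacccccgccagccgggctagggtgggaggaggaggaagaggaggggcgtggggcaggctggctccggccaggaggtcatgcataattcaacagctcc

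Among the TEAD genes, Tead3 was the most abundant before induction and Tead4 at the end. Tead4 (chr6:128224288-128300823, minus strand) was at 0.920 and 2.16 TPM at D0, 8.02 and 5.67 at W1, 2.44 and 3.005 at W2, 6.75 and 5.79 at W6 and 4.68 and 6.36 at W12. Both D0 libraries lay below all induced libraries, and W2 lay below W1, W6 and W12. The change from D0 was 1.65 at W1 (limma adjusted p = 0.00886), 0.59 at W2 (adjusted p = 0.1995), 1.56 at W6 (adjusted p = 0.00492) and 1.39 at W12 (adjusted p = 0.00545), with SE 0.29 each. The dip from W1 to W2 was -1.06 and the return from W2 to W6 was 0.97, and neither passed the threshold (limma adjusted p = 0.163 and 0.0529). Without D0 replicate 1 or D0 replicate 2, which enter only the shared estimate of spread, the W2 to W6 difference was called (adjusted p = 0.0249 and 0.0253). Leaving out D0 replicate 1 gave 0.23 at W2, and leaving out D0 replicate 2 gave 0.95. The W1 call was lost without W1 replicate 1 (1.44, adjusted p = 0.0705), and the W12 call held in all 16 other fits.

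Tead2 (chr7:45215753-45233644, plus strand), which had the lowest mean level of the 4, rose by W6. It was at 0.289 and 0.182 TPM at D0, 0.584 and 1.11 at W1, 1.05 and 1.60 at W2, 1.57 and 2.52 at W6 and 1.66 and 1.81 at W12. The D0 libraries were the lowest and W1 overlapped with W2, and W6 with W2 and W12. The change from D0 was 0.57 at W1 (limma adjusted p = 0.216), 0.90 at W2 (adjusted p = 0.0503), 1.29 at W6 (adjusted p = 0.00751) and 1.15 at W12 (adjusted p = 0.00853), with SE 0.26 each. Leaving out 1 library at a time gave 0.36 to 0.77 at W1. The W2 value was called without W6 replicate 1 or W6 replicate 2 (limma adjusted p = 0.0297 and 0.0298) and with a pseudocount of 0.1 TPM (2.07, adjusted p = 0.0218).

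Tead3 (chr17:28331671-28350817, minus strand) was at 5.28 and 9.48 TPM at D0, 8.22 and 10.6 at W1, 6.32 and 8.52 at W2, 6.75 and 3.40 at W6 and 1.86 and 2.39 at W12. Only W12 stood apart from all other timepoints. The change at W12 was -1.38 (SE 0.34, limma adjusted p = 0.0116), and the call was lost without D0 replicate 2 (-1.01, adjusted p = 0.0807) or W12 replicate 1 (adjusted p = 0.0765). From W6 to W12 the difference was -0.91 (limma adjusted p = 0.0942), and it passed without W6 replicate 2 (-1.31, adjusted p = 0.0345) and was -0.50 without W6 replicate 1. Its values at W1, W2 and W6 were 0.35, 0.04 and -0.47 (limma adjusted p = 0.567, 0.955 and 0.308), and leaving out 1 library at a time gave -0.88 to -0.065 at W6.

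Tead1 (chr7:112679318-112906807, plus strand) was at 3.19 and 3.93 TPM at D0, 8.397 and 9.93 at W1, 5.11 and 7.09 at W2, 3.39 and 7.54 at W6 and 3.67 and 4.98 at W12. The W1 libraries were the highest of all 10, and W2, W6, W12 and D0 each overlapped with their neighbour in the order of means. The W1 difference of 1.16 missed the threshold (SE 0.32, limma adjusted p = 0.0569) and passed it without W6 replicate 1 (adjusted p = 0.0157) or W6 replicate 2 (0.0160). Its values at W2, W6 and W12 were 0.63, 0.43 and 0.22 (limma adjusted p = 0.218, 0.329 and 0.612), and the W6 value was 0.91 without W6 replicate 1 (adjusted p = 0.0419) and -0.050 without W6 replicate 2. Leaving out 1 library at a time gave 0.039 to 0.40 for Tead1 at W12. Of the W6 libraries, replicate 2 had the higher Tead1 level and was also the library with Dcn at 51.2 TPM. The rest of the fibroblast list was low there, with Col1a1 at 0.143, Col1a2 at 0.550, Col3a1 at 0.106, Pdgfra at 0.161 and Lum at 0.0383 TPM. A link between Dcn and Tead1 was not tested.

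Within the family the make-up at W12 was unlike that at D0. The 4 genes' summed level was 9.67 and 15.8 TPM at D0, 25.2 and 27.3 at W1, 14.9 and 20.2 at W2, 18.5 and 19.2 at W6 and 11.9 and 15.54 at W12. Tead3 made up 54.6 and 60.2% of the sum at D0 and 15.7 and 15.4% at W12. The share of Tead4 was 9.52 and 13.7% at D0 and 39.4 and 40.9% at W12, and that of Tead2 was 2.98 and 1.16% against 13.97 and 11.6%. Tead1 stayed between 18.3 and 39.2% in all libraries. The coactivators' sum divided by the TEAD sum, both in TPM, was 7.17 and 6.66 at D0 and between 1.61 and 4.26 in every induced library. Shares and ratios are descriptions, with no test.

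**Figure D2:**
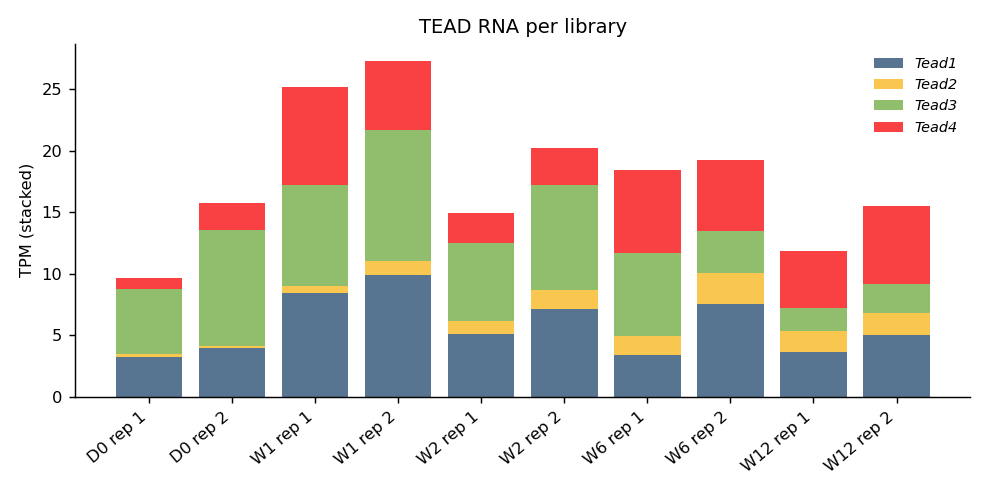
Stacked levels in TPM of Tead1, Tead2, Tead3 and Tead4 in each of the 10 libraries, in order of induction time. Tead3 was the largest block at D0, with 54.6 and 60.2% of the sum, and Tead4 at W12, with 39.4 and 40.9%.

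The promoters of Tead2 and Tead3, one with the TEAD letters and one without, show the contrast within the family. Of the TEAD genes, windows were found for these and not for Tead1 or Tead4. The Tead2 window (chr7:45215542-45215841, plus strand) holds no match, and the shown Tead3 window (chr17:28350551-28350850, minus strand) holds 3, at positions -123, -114 and 3. Of the other Tead3 windows, one holds a match at -182 and one holds none.
Tead2: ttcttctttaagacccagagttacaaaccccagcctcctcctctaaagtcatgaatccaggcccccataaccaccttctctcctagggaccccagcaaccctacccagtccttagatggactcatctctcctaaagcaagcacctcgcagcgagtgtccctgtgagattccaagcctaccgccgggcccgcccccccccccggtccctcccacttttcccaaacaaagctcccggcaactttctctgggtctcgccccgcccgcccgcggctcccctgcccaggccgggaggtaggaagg
Tead3: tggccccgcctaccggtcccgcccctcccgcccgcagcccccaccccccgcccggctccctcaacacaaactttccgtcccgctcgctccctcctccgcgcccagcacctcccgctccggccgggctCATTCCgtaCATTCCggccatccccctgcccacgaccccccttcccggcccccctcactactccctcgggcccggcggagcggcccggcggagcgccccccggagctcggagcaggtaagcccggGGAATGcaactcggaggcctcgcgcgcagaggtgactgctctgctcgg

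Lats2, which encodes a kinase that restrains YAP and TAZ and is itself known as their target, fell by W12. Lats2 (chr14:57689662-57758388, minus strand) was at 9.49 and 15.0 TPM at D0, 16.9 and 14.1 at W1, 16.7 and 15.7 at W2, 9.16 and 6.20 at W6 and 4.24 and 4.62 at W12. W1 overlapped with D0 and with W2, both W2 libraries lay above D0, and W12 lay below everything else. The change from D0 was 0.34, 0.41 and -0.60 at W1, W2 and W6 (limma adjusted p = 0.433, 0.304 and 0.0968) and -1.26 at W12 (SE 0.25, limma adjusted p = 0.00452), the last of which held in all 17 other fits. The W1 and W2 values were 0.038 and 0.10 without D0 replicate 1 and 0.65 and 0.71 without D0 replicate 2. Without D0 replicate 1 the W6 value of -0.90 also passed (adjusted p = 0.0252), and without D0 replicate 2 it was -0.30. From W2 to W6 Lats2 fell by 1.01 (limma adjusted p = 0.0320), and this call was lost in 11 of 18 other fits, with adjusted p from 0.0534 to 0.173 without W1 replicate 1, W1 replicate 2, W2 replicate 1, W2 replicate 2, W6 replicate 2, W12 replicate 1 or W12 replicate 2. Lats2 shares 2955 of its 6971 exon bases on the same strand with the annotated gene Gm49361 (mean 0.793 TPM), so its level is uncertain where reads were divided between them.

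Amotl2, which encodes an angiomotin family scaffold that binds YAP at cell junctions, fell by W6. Amotl2 (chr9:102716672-102733418, plus strand) was at 19.0 and 38.2 TPM at D0, 21.4 and 18.1 at W1, 18.5 and 22.5 at W2, 8.10 and 9.52 at W6 and 8.61 and 13.5 at W12. All W6 and W12 libraries lay below the earlier ones, and D0, W1 and W2 overlapped. The change from D0 was -0.44 and -0.39 at W1 and W2 (limma adjusted p = 0.438 and 0.455), -1.52 at W6 (adjusted p = 0.00882) and -1.24 at W12 (adjusted p = 0.0143), with SE 0.32 each. The W12 call was lost without D0 replicate 2 (-0.76, adjusted p = 0.0818) or W12 replicate 1 (-0.95, adjusted p = 0.108), and with all genes above 0 TPM tested (adjusted p = 0.0588). From W2 to W6 it fell by 1.13 (limma adjusted p = 0.0463), which was lost in 11 of 18 other fits, with adjusted p from 0.0634 to 0.211 without any one of the W1, W2, W6 or W12 libraries.

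Ankrd1 (chr19:36111961-36120099, minus strand), a nuclear ankyrin repeat protein much used as a readout of YAP activity, was at or near 0 throughout. It was listed at 0 in 6 of the 10 libraries, at 0.0117 TPM in D0 replicate 1, 0.239 TPM in W6 replicate 2 and 0.0431 and 0.103 TPM at W12. At these levels no fold or test is given.

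The promoters of these target genes are printed because all 3 hold the TEAD letters although their RNA levels ran from at or near 0 to 38.2 TPM. The Lats2 window (chr14:57746074-57746373, minus strand) has its match at position 5, the Amotl2 window (chr9:102717554-102717853, plus strand) at -65 on the opposite strand, and the Ankrd1 window (chr19:36119795-36120094, minus strand) at -210 and -123. A second Lats2 window holds none. Of the 7 members with a window, 6 had a match in at least 1, against 16.6% of 27025 genes, and over single windows it was 8 of 11 against 14.7% of 32851. The single-window count includes the same Wwtr1 match from both of its overlapping windows. Of the 7 members, 3 were included as known YAP/TAZ targets. In the list of other YAP/TAZ target genes 4 of the 12 with a window had a match. The letters were chosen after the data were seen. A match describes the letters only, and binding was not measured in these libraries.
Lats2: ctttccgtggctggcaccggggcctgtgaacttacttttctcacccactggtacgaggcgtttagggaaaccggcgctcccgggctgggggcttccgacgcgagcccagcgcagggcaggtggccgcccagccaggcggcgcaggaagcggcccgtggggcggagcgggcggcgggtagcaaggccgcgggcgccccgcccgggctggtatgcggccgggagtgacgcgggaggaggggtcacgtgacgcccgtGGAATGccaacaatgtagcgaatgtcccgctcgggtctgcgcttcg
Amotl2: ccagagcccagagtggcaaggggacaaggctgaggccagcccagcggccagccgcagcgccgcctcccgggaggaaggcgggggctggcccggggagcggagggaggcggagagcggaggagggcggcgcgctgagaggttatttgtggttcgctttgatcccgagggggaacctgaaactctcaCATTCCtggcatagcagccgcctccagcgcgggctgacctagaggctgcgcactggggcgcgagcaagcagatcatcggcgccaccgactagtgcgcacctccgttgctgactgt
Ankrd1: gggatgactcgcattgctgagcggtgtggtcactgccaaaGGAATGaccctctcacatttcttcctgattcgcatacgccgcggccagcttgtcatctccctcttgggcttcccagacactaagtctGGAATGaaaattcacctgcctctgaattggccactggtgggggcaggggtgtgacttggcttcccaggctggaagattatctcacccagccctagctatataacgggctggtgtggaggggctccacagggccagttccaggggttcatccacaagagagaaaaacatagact

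Counted by timepoint, most members were called at W6 and W12. A change was called at limma adjusted p under 0.05 over 13110 genes. At W1 1 of the 8 tested members was called, Tead4, which was higher, where 9.89% of all tested genes were called (5.79% higher and 4.10% lower). No member was called at W2 by limma, with 1 at unadjusted p under 0.05, beside 15.7% of all genes (9.06% higher and 6.64% lower). At W6 5 were called, 2 higher and 3 lower, against 32.4% (18.3% higher and 14.1% lower). With only the 4 libraries compared in the fit, Wwtr1 alone kept its W6 call, and Yap1 (limma adjusted p = 0.154), Tead2 (0.0556), Tead4 (0.0574) and Amotl2 (0.0736) missed the threshold, as did Tead4 at W1 (0.0877) and Amotl2 at W12 (0.0663). At W12 7 were called, 2 higher and 5 lower, against 43.0% (17.9% higher and 25.1% lower). The median log2 change of the members was 0.35, 0.22, -0.54 and -1.25 at W1, W2, W6 and W12, beside 0.09, 0.06, 0.08 and -0.08 for all tested genes. The W1 count of 1 was 0 without W1 replicate 1 and 2 without W6 replicate 1 or W6 replicate 2, and the W2 count of 0 was 1 without D0 replicate 1, W6 replicate 1 or W6 replicate 2.

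Between successive timepoints, the step from W2 to W6 held the most calls. From W1 to W2 no member was called by limma, with 1 (Tead4) at unadjusted p under 0.05, where 0.114% of all genes were called. From W2 to W6, Wwtr1, Lats2 and Amotl2 fell, 3 of 8, beside 16.3% of all genes called (8.31% lower). This count of 3 was 1 without W1 replicate 1, W1 replicate 2, W6 replicate 2, W12 replicate 1 or W12 replicate 2, and 0 without W2 replicate 1 or W2 replicate 2. From W6 to W12 Yap1 alone was called, 1 of 8, beside 20.2% of all genes called (13.5% lower), and this count was 0 without W6 replicate 1, W12 replicate 1 or W12 replicate 2 and 2 without W6 replicate 2. In that last step the choice of scaling shifted the median of all genes by 0.15 on the log2 scale, and Yap1 missed the threshold under median-ratio scaling (limma adjusted p = 0.0682). The F test of the same fit over the 4 differences from D0 called 7 of 8 members, all but Tead1 (adjusted p = 0.0732), beside 57.5% of all genes.

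**Figure D3:**
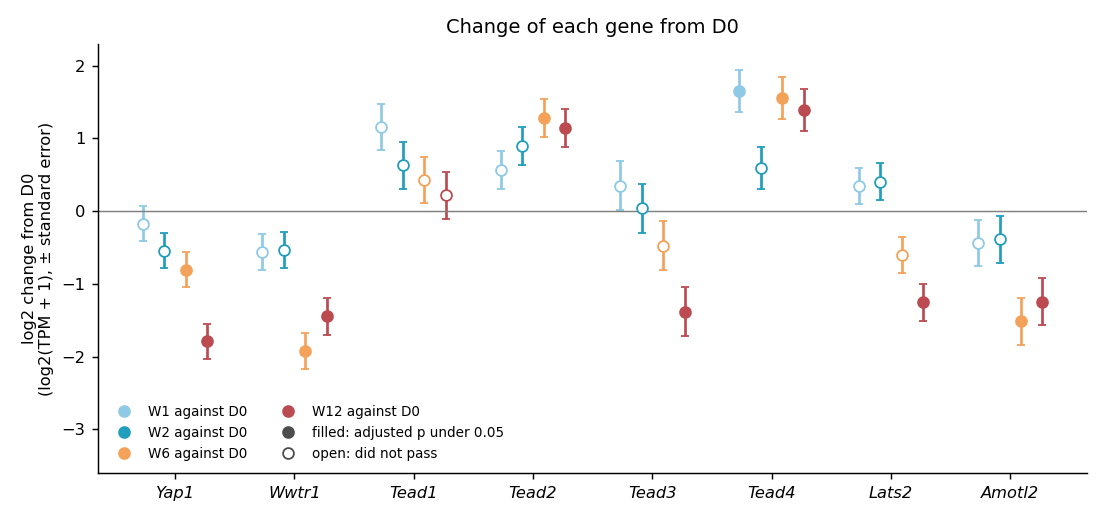
Difference from D0 on the log2(TPM + 1) scale at W1, W2, W6 and W12 for the 8 tested genes, with bars for the standard error of the limma fit. Yap1 reached -1.79 at W12 and Wwtr1 -1.93 at W6. Tead1, Tead2 and Tead4 lay above 0 at every timepoint, Tead1 without a call.

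In a list of the Hippo kinase cascade, which also holds partners of the kinases, 1 or 2 genes were called at each timepoint. Later counts of kinases refer to this whole list. In a list of 10 genes of the kinase cascade, all tested, Map4k4, a kinase that can activate LATS, was the only one called at W1 and W2 (0.71 and 0.63, limma adjusted p = 0.0272 and 0.0319). At W6 Map4k4 (0.51, adjusted p = 0.0419) and the MST scaffold Sav1 (0.98, adjusted p = 0.0127) were higher, and at W12 Lats1 (-0.77, adjusted p = 0.0188) and Taok2 (-0.65, adjusted p = 0.0449) were lower. The MST kinase genes Stk3 and Stk4 stayed between 8.72 and 14.1 TPM in all libraries, with no call. The counts of 1, 1, 2 and 2 of 10 stand beside 9.89, 15.7, 32.4 and 43.0% of all tested genes, and the F test called 5 of 10 beside 57.5%. The list's median change was 0.17, 0.08, -0.11 and -0.23 at W1, W2, W6 and W12. The counts of 1 at W1 and W2 were 0 without any one of the D0, W1, W2 or W12 libraries. The count of 2 at W6 was 0 without D0 replicate 2 or W6 replicate 1 and 1 without any one of the W1, W2 or W12 libraries. At W12 it was 0 without D0 replicate 2 or W12 replicate 1, and 1 without W12 replicate 2 or any one of the W1 or W2 libraries.

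A list named upstream regulators pools genes whose proteins act at different points of the pathway, some by binding YAP or LATS directly. Of its tested genes, 6 of 10 were called lower at W6 and 8 of 10 at W12, beside 14.1 and 25.1% of all tested genes. Of 13 listed genes 10 were tested, and Amot, Dchs1 and Fat4 were under the minimum level. At W1 the LIM protein gene Wtip was higher (0.85, limma adjusted p = 0.0213) and the phosphatase gene Ptpn14, which binds YAP, lower (-1.25, adjusted p = 0.0209). At W2 Wtip was again higher, and Ptpn14 (-1.17) and Limd1 (-0.84) were lower. At W6 6 were lower, Wwc2, Frmd6, Ptpn14, Amotl1, Ajuba and Limd1, and at W12 Wwc1 and Fat1 joined them for 8 lower and none higher. Wtip was not called at W6 or W12. Amotl1 and Limd1 differed by -1.71 and -1.67 at W6 (limma adjusted p = 0.000598 and 0.00115). Ptpn14 went from 50.1 and 77.2 TPM at D0 to 4.52 and 4.83 TPM at W12 (-3.48, SE 0.27, limma adjusted p = 4.43e-05). Frmd6, a FERM protein gene, went from 55.7 and 91.6 to 13.7 and 13.8 TPM (-2.30, adjusted p = 0.000125), and Ajuba, whose LIM protein binds LATS, from 140.3 and 234.9 to 39.1 and 39.3 TPM (-2.18, adjusted p = 0.000219). Nf2, which encodes Merlin, stayed between 30.2 and 45.0 TPM and was called at no timepoint. The list's median change was -0.10, -0.27, -0.79 and -1.54, beside the all-gene medians given above. The counts of 2 of 10 at W1 and 3 of 10 at W2 stand beside 9.89 and 15.7% of all tested genes called. The W1 count of 2 was 4 without D0 replicate 1, and it was 0 on leaving out D0 replicate 2, W1 replicate 1 or W1 replicate 2. The W2 count of 3 was 6 without D0 replicate 1, 1 without W1 replicate 1 or W1 replicate 2, and 0 without D0 replicate 2, W2 replicate 1 or W2 replicate 2.

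VGLL proteins compete with YAP and TAZ for TEAD. Vgll1 was listed at 0 in every library and Vgll2 was at most 0.0836 TPM, so 2 of 4 listed genes were tested. Vgll4 was abundant, at 188 and 238 TPM at D0, 193 and 172 at W1, 191 and 150.1 at W2, 139 and 139 at W6 and 79.3 and 83.1 at W12. It was lower at W6 (-0.61, limma adjusted p = 0.0235) and W12 (-1.37, adjusted p = 0.000415), and the list's median change was 0.05, 0.07, -0.30 and -1.09 over the timepoints. The count of 1 of 2 stands beside 32.4% of all tested genes called at W6 and 43.0% at W12 (14.1 and 25.1% lower). The W6 count of 1 was 0 without D0 replicate 2, W6 replicate 1 or W6 replicate 2, and the W12 count of 1 was 2 without W6 replicate 1 or W6 replicate 2. Vgll3 was between 2.46 and 10.6 TPM with no call in the fit of all libraries.

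**Figure D4:**
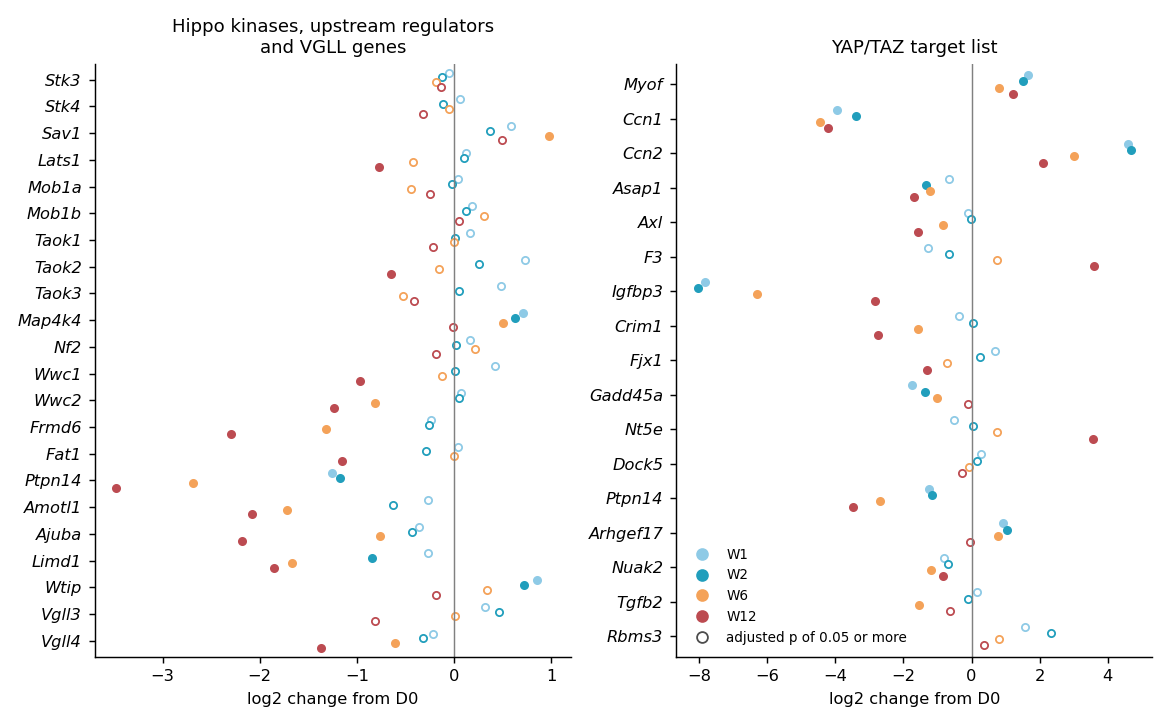
Difference from D0 on the log2(TPM + 1) scale for the tested genes (open circles where the adjusted p was 0.05 or more) of the kinase, upstream regulator, VGLL and YAP/TAZ target lists at W1, W2, W6 and W12. Most upstream regulators lay below 0 at W12, where Ptpn14 reached -3.48, and the target genes spread to both sides, from Igfbp3 at -8.04 (W2) to Ccn2 at 4.67 (W2).

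The known YAP/TAZ target genes were called in both directions. From a published signature, the 19 genes that are no members were listed and 17 tested. Called were 3 higher and 4 lower at W1, 3 and 5 at W2, 3 and 9 at W6, and 4 and 8 at W12, beside 9.89, 15.7, 32.4 and 43.0% of all tested genes called in either direction. Ccdc80 and Foxf2 were under the minimum, and Dock5 and Rbms3 were called at no timepoint. The median change was -0.38, -0.01, -0.83 and -0.63. The W2 total of 8 was 4 without W2 replicate 2. Ptpn14 belongs to this list as well as to the upstream regulators.

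Ccn1 and Ccn2, matricellular protein genes that are the usual readouts of YAP activity, went in opposite directions. Ccn1 was at 2805 and 4956 TPM at D0, 399 and 147 at W1, 518 and 244 at W2, 133 and 222 at W6 and 157 and 252 at W12, with changes of -3.94, -3.39, -4.43 and -4.22 (SE 0.54, limma adjusted p = 0.00296, 0.00450, 0.000717 and 0.000562). Ccn2 was at 7.27 and 15.3 TPM at D0, 248 and 307 at W1, 385 and 226 at W2, 87.6 and 96.9 at W6 and 45.0 and 52.1 at W12, with changes of 4.58, 4.67, 3.003 and 2.09 (SE 0.33, limma adjusted p = 0.000195, 0.000113, 0.000498 and 0.00162). For both genes D0 was separate from every induced library. Ccn2 came down again from W2 to W6, by -1.67 (limma adjusted p = 0.0161). The immediate-early list fell beside Ccn1, with 13, 12, 13 and 15 of its 16 genes called at the successive timepoints, all lower except Ier3 at W12, beside 4.10, 6.64, 14.1 and 25.1% of all tested genes called lower, and its part in the fall of Ccn1 was not tested.

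**Figure D5:**
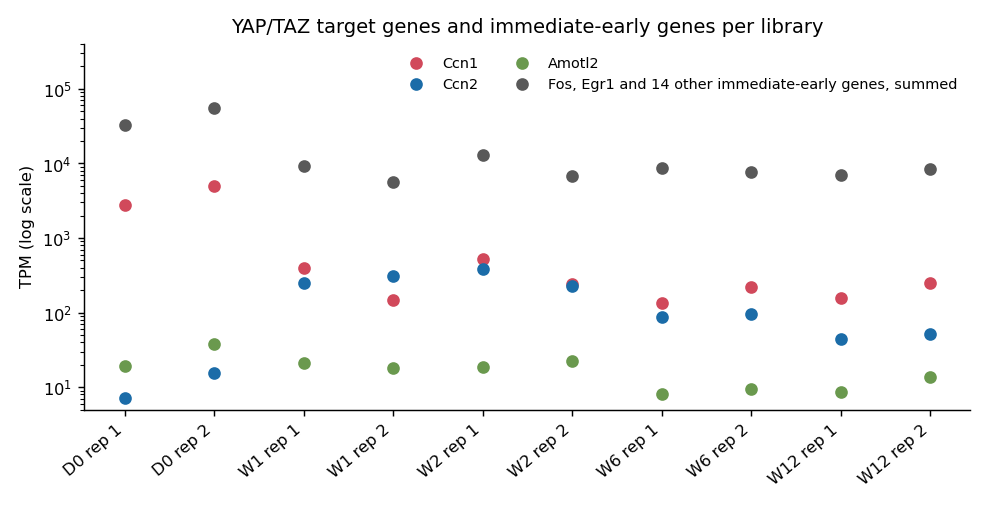
Level in TPM (log axis) of the target genes Ccn1, Ccn2 and Amotl2 and the sum of 16 immediate-early genes in each of the 10 libraries. Ccn1 fell from 2805 and 4956 TPM at D0 to between 133 and 518 TPM, Ccn2 rose from 7.27 and 15.3 TPM to 45.0 or more, and the immediate-early sum was highest in both D0 libraries.

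Other targets split by time. Igfbp3, which encodes an insulin-like growth factor binding protein, was at 551 and 595 TPM at D0, 2.22 and 1.01 at W1, 1.64 and 0.812 at W2, 1.32 and 21.8 at W6 and 81.2 and 76.8 at W12. Its change was -7.81 at W1 and -2.84 at W12 (limma adjusted p = 0.00103 and 0.0234). Myof, a membrane repair gene, was higher at every timepoint, at 1.66, 1.51, 0.82 and 1.22 (limma adjusted p = 0.000380, 0.000440, 0.00356 and 0.000335). The tissue factor gene F3 was called at W12 alone, at 102 and 118 TPM against 16.7 and 3.71 at D0 (3.60, adjusted p = 0.00119, limma). Nt5e, which encodes the ecto-nucleotidase CD73, was at 23.7 and 31.6 TPM at W12 against 0.757 and 2.26 at D0 (3.57, limma adjusted p = 8.92e-05). W12 was also where the endothelial markers appeared, and their part in these increases was not tested. Crim1 and Axl, genes of membrane proteins, were lower at W6 (-1.56 and -0.83) and W12 (-2.75 and -1.58), with limma adjusted p = 0.00760 and 0.0317 and then 0.000347 and 0.00140. Gadd45a, a stress-response gene, was lower at W1, W2 and W6 (-1.73, -1.36 and -1.02, limma adjusted p = 0.00229, 0.00477 and 0.00954). Asap1, which encodes an Arf GTPase-activating protein, was lower at W2, W6 and W12 (-1.34, -1.22 and -1.68). The ligand gene Tgfb2 was lower at W6 (-1.54, limma adjusted p = 0.00401), and Arhgef17 was higher at W1, W2 and W6 (0.93, 1.04 and 0.79).

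Genes whose course was most like a member's were sought by Pearson correlation of log2(TPM + 1) over the 10 libraries among 11509 genes. These correlations are descriptions with no p, the points share their timepoints and scaling, and the 3 closest genes per member were kept by rule. Yap1 was matched most closely by Kctd3 (r = 0.987), Wwtr1 by Selenon (0.978), Tead1 by Ubn2 (0.927) and Tead2 by Pyroxd1 (0.965). For Tead3 the closest were Evpl (0.990), which encodes the desmosomal protein envoplakin, F8a (0.988) and Jup (0.988), the plakoglobin gene. Lats2 was closest to Tshz1, Itpr3 and Arhgap35 (0.995 each). Wwtr1 was itself among the 3 genes closest to Amotl2 (0.965), after Flcn (0.976) and Arrdc3 (0.969). Among members, Tead3 and Lats2 (0.928), Yap1 and Tead3 (0.883) and Yap1 and Lats2 (0.871) ran together, and Wwtr1 and Tead2 ran oppositely (-0.842).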

How the data were processed

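RNA from sorted EpdSCs was sequenced after SMARTer low-input preparation. Per the paper's methods and the labels, the authors trimmed reads with Skewer, quantified them with Salmon 1.4.0 against GENCODE M24 transcripts (GRCm38) with the transgene added, and summarised them with Tximport 1.12.3. The deposited values are TPM per gene, so depth is unknown and no counting interval is given. Whether counting used strand is not given in the sources used here.

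The count-based test of the methods could not be run on TPM. In its place limma 3.58.1 (R 4.3.3) was fitted to log2(TPM + 1) over the 10 time-course libraries, with 1 mean per timepoint and a trended prior, for the 13110 of 54332 genes whose mean reached 1 TPM, and p-values were adjusted by Benjamini-Hochberg over all of them. Median-ratio scaling, which divides each library by the median ratio of its genes to their geometric mean, was an alternative. For W1 the share of called genes that were higher was 58.6% with TPM and 47.4% with median-ratio scaling, and for W12 against W6 it was 33.0 and 55.0%. 4 placode libraries were not analysed here, since the file used for them holds the authors' own comparison (fold changes and p-values).

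The members and gene lists were chosen with earlier results of these data known, and the promoter letters were chosen after seeing the data. By rule for the kinase, upstream regulator, VGLL and target lists, up to 3 highest and up to 3 lowest called changes were named at each timepoint. Other called genes of these lists could be named too, and cell-type marker and immediate-early genes were named outside this rule. Likeness was ranked as the 3 highest correlations among genes reaching the same mean, leaving out unnamed gene models and pseudogenes. The ranking for Tead4 is not reported here. Uncalled genes named from the lists (Stk3, Stk4, Nf2, Vgll3, Dock5, Rbms3) and genes under the minimum were chosen after their values were seen. Promoter windows and gene positions came from RefSeq and GENCODE tables of GRCm38.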

Additional observations from a re-analysis of the deposited data

How the results depend on the processing

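The 17 called member changes gave 300 values under other settings, of which 250 stayed called, 50 missed the threshold and 0 changed direction. The 39 uncalled changes gave 702 values, of which 16 passed and 20 changed sign. With a pseudocount of 0.1 TPM, 1 member was called at W2. With all genes above 0 TPM tested, the counts were 0 (kinases) and 0 (upstream regulators) at W1, 0 and 0 at W2, 1 (kinases) and 0 (VGLL) at W6, 1 (kinases) at W12, 1 member for W6 against W2, 0 for W12 against W6 and 4 in the F test. A minimum of 5 TPM gave 0 members at W1 and 3 at W6, with fewer members tested. Median-ratio scaling gave 0 kinases at W1, 1 at W6 and 1 at W12, 1 member at W2 and 0 for W12 against W6, and Tead3 turned to -0.012 at W2. Without a trended prior 1 member was called at W2 and 1 kinase at W6. With only the 4 libraries compared, fewer samples gave 0 members at W1, 1 at W6 and 0 for W12 against W6, 0 kinases at all 4 timepoints, upstream regulators 0, 0 and 3 at W1, W2 and W6, VGLL genes 0 at W6 and 2 at W12, and targets 4, 5 and 5 at W1, W2 and W6. A fit of D0 to W6 only, added after seeing the data, gave 0, 0 and 1 kinases at W1, W2 and W6 and 1 member for W6 against W2. Except where a setting tests fewer genes or samples, the cause was not tested.

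Leaving out 1 library at a time gave 0 to 2 members at W1, 0 to 1 at W2, 4 to 6 at W6, 5 to 7 at W12, 0 to 4 for W6 against W2, 0 to 2 for W12 against W6, 0 for W2 against W1 and 6 to 8 in the F test. Kinases ranged over 0 to 1, 0 to 1, 0 to 2 and 0 to 3 at W1, W2, W6 and W12, upstream regulators over 0 to 4, 0 to 6, 5 to 6 and 8, VGLL genes over 0, 0, 0 to 1 and 1 to 2, and targets over 5 to 8, 4 to 10, 10 to 12 and 9 to 12. The changes whose sign turned spanned -0.43 to 0.083 (Yap1), -0.019 to 0.72 (Tead3) and -0.92 to 0.049 (Amotl2) at W1, and -0.33 to 0.41 (Tead3) and -0.87 to 0.097 (Amotl2) at W2. For Tead1 it was -0.050 to 0.91 at W6. For W2 against W1 they spanned -0.12 to 0.17 (Wwtr1), -0.059 to 0.19 (Lats2) and -0.085 to 0.18 (Amotl2), and for W6 against W2 -0.68 to 0.28 (Tead1). For W12 against W6 they spanned -0.69 to 0.27 (Tead1), -0.36 to 0.086 (Tead2), -0.35 to 0.022 (Tead4) and -0.026 to 0.57 (Amotl2).

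The labels do not say whether libraries with the same replicate number share more than the number. Same-numbered deviations correlated at -0.129 to 0.182. With the replicate block 2 members were called at W1 (Tead1 joined, 1.16, limma adjusted p = 0.0255), and kinases were 0, 0 and 1 at W1, W2 and W6. Under the same block Lats2 lost its call for W6 against W2 (-1.01, limma adjusted p = 0.0520). The crossed replicate block, added after seeing the data, gave 2 members at W1, 1 kinase at W6 and 2 members for W12 against W6.

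With 2 libraries per timepoint and depth unknown, levels near 0, as for Ankrd1 and Tead2 at D0, carry an unknown counting error. The D0 libraries enter every comparison with D0, so those comparisons are not independent.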
